A study of Mus musculus with 8 samples.

Results

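The genes described here encode the general splicing factors of mouse cells, and they were chosen by name. Every RefSeq transcript was given a gene symbol, and symbols of the SR proteins (Srsf with a number), the heterogeneous nuclear ribonucleoproteins (Hnrnp), the SF3A and SF3B subunits (Sf3a and Sf3b with a number) and the small nuclear ribonucleoprotein proteins (Snrp, without the imprinted gene Snrpn) were kept. This gave 52 of 15359 genes and 83 of 19776 transcripts. By family they were 11 SR protein genes, 21 hnRNP genes, 9 SF3A and SF3B genes, 7 Sm core genes and 4 other snRNP protein genes.

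The study measured RNA levels and N6-methyladenosine (m6A) in 4 mouse cell cultures of strain C57BL/6. They were induced pluripotent stem cells (iPSC, passage 22), embryonic stem cells (ESC, passage 14), neural stem cells (NSC, passage 16), derived from E12.5 fetal brain, and Sertoli cells of the testis (SC, passage 2). The iPSC and ESC shared 1 medium, with 20% serum replacement and 1000 units/ml leukemia inhibitory factor, NSC were grown with EGF and bFGF, each at 10 ng/ml, and SC were grown in 10% fetal bovine serum. Each cell type had 1 RNA-seq library and 1 m6A-seq library, in which RNA fragments were enriched with an antibody against m6A. No difference below therefore has a replicate check, no p-value is given, and iPSC and ESC are different cells, not replicates. The labels do not say which cells the iPSC were made from or how many cultures or animals a library holds.

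Introns are removed from pre-mRNA by the spliceosome, which is built from small nuclear RNAs and proteins. Sm proteins form a ring around these RNAs, SF3A and SF3B belong to the U2 particle that grips the branch point, and SR proteins bind exons and help to recruit the machinery. The hnRNPs coat the pre-mRNA and often oppose exon use. Several SR protein genes are known to limit their own level by splicing a stop-containing segment into their own mRNA. m6A is methylation of internal adenosines of an mRNA, often found near stop codons, and the proteins of Hnrnpc and Hnrnpa2b1 have been described in human cells as binding RNA in an m6A-dependent way.

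The RNA values are FPKM (fragments scaled to transcript length and to library size) and were summed over the transcripts of a gene. The depth of the libraries is unknown. The summed FPKM of the whole table ran between 394600 in iPSC and 818860 in SC, so the columns do not share a total. The median log2 ratio of a library to the mean of all 4 was -0.33 in iPSC, -0.39 in ESC, 0.12 in NSC and 0.65 in SC, and for this reason differences were also computed after scaling each library by that ratio. Marker genes fixed for each cell type followed the labels in part. The 8 pluripotency markers had a median of 237 FPKM in iPSC and 181 in ESC, against 0.0110 in NSC and 0.0690 in SC. All 9 measured Sertoli cell markers passed 1 FPKM in SC, but so did 6 of 8 fibroblast and peritubular myoid markers, whose summed level was 4583 FPKM in SC and between 4.31 and 58.5 in the other libraries. In NSC 7 of 10 neural stem cell markers passed 1 FPKM. Sox1 was listed at 0, and Fabp7 and Olig2 stood at 0.380 and 0.0631. The list's median was 11.5 FPKM in NSC and 0.181 in SC. Nes, Vim and Fabp7 were nonetheless higher in SC (85.9, 3438 and 4.73) than in NSC (9.10, 708 and 0.380). The neuron marker Neurod1 stood at 125 in NSC and 0.0120 in SC. Tubb3 and Map2, also neuron markers, had 37.4 and 10.0 FPKM in NSC against 828 and 72.3 in SC. Rbfox3 was below 1 in both. Germ cell markers summed to 135 FPKM in iPSC and 56.1 in ESC, against 0.278 in NSC and 1.40 in SC. The part of these other cell types in the values below was not tested. In such bulk samples, fewer cells of a type and less RNA per cell cannot be told apart.

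By their median level, splicing factor genes stood well above genes in general in every library. The 52 genes together took 1.80% of the summed gene FPKM in iPSC, 1.32% in ESC, 1.15% in NSC and 0.755% in SC. Both pluripotent libraries lay above both differentiated ones in this share, which does not depend on the scaling between libraries. Their median level was 95.7 FPKM in iPSC, 92.3 in ESC, 81.0 in NSC and 83.5 in SC, against medians over all genes of 5.06, 4.47, 8.17 and 11.2 in the same order. Of the 52, 36 were in the top 10% of expressed genes in iPSC, 31 in ESC, 31 in NSC and 20 in SC. A level of 1 FPKM was reached by 51 members in some library and by 50 in every library. The exceptions were Srsf12, with 0.331, 0.309, 0.0274 and 0.699 FPKM in iPSC, ESC, NSC and SC, and Hnrnpa1l2-ps2, a pseudogene by its name, with 0.944, 1.08, 0.896 and 0.334.

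**Figure D1:**
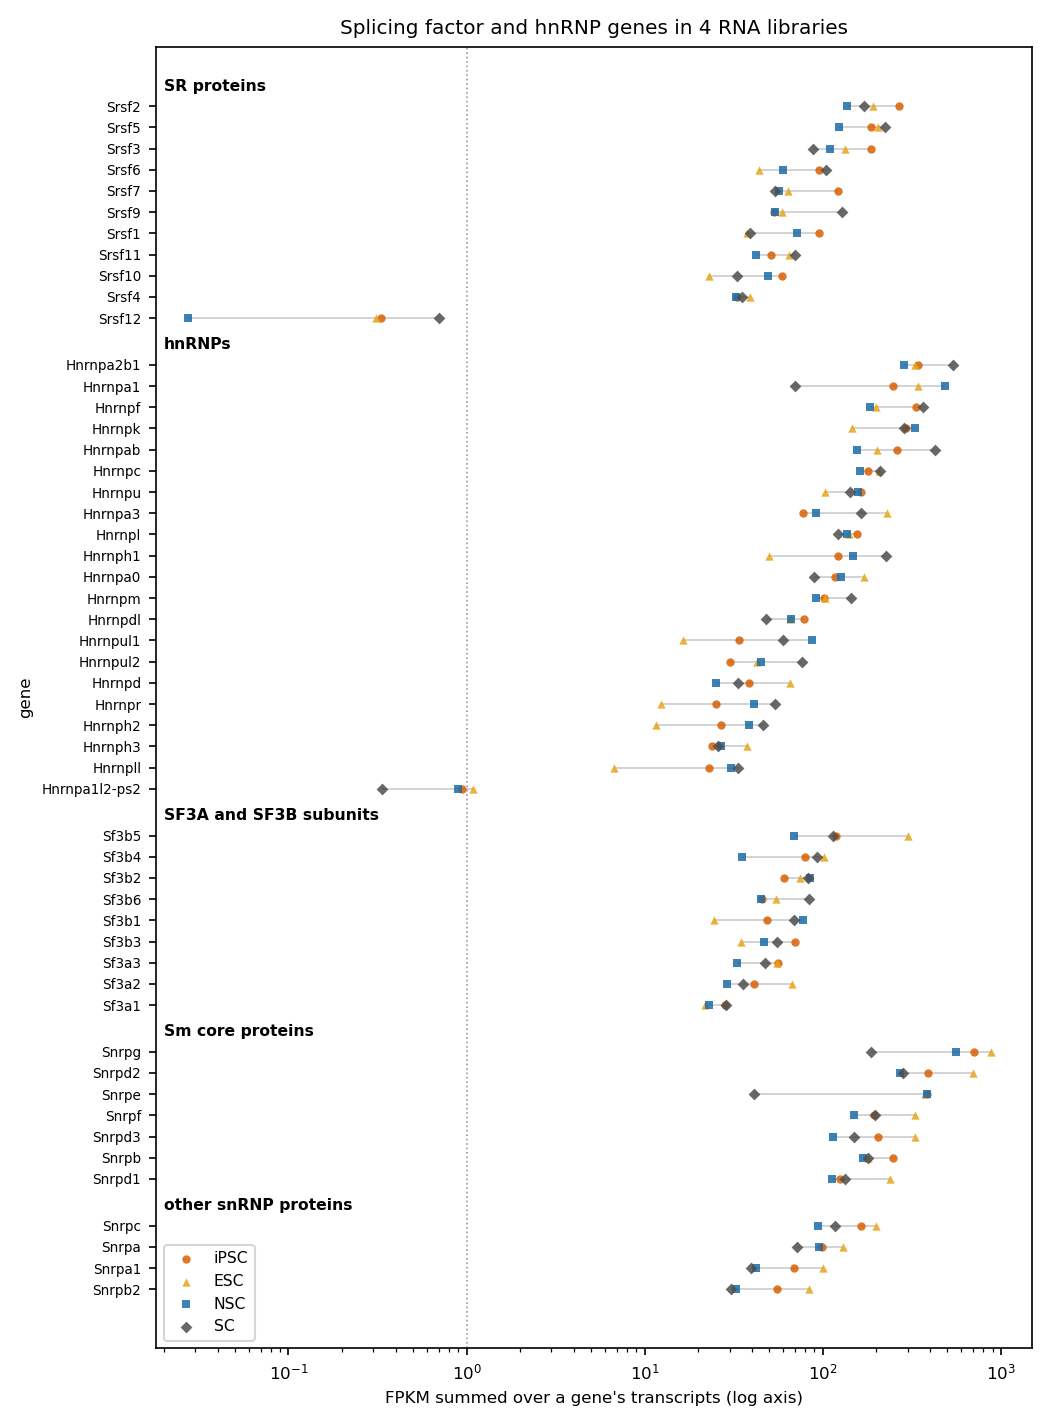
Summed FPKM of each of the 52 genes (rows, by family and then by mean level) on a log axis, with 1 point for each RNA library and a grey line from the lowest to the highest library. Apart from Srsf12 and Hnrnpa1l2-ps2, every gene stands to the right of the dotted line at 1 FPKM, and among those genes the widest lines are those of Snrpe and Hnrnpa1, with SC at the low end (41.1 and 69.6 FPKM).

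The Sm core genes had the highest median level of the 5 families in every library, at 249.6 FPKM in iPSC, 330.2 in ESC, 168 in NSC and 179.7 in SC. Snrpg, a ring subunit, was the most abundant member in iPSC (710.6 FPKM), ESC (879) and NSC (561), and stood at 187 in SC. Snrpd2 had 389 FPKM in iPSC, 697 in ESC, 272 in NSC and 284 in SC. Snrpe had 384, 374 and 386 FPKM in iPSC, ESC and NSC, against 41.1 in SC. Snrpe was thus level in 3 libraries and low in 1, whereas Snrpd2 was high in both pluripotent libraries. Snrpf, another ring subunit, had 194 FPKM in iPSC and 330.2 in ESC, against 150.2 in NSC and 198 in SC. Among the particle-specific proteins, Snrpc of the U1 particle had 164 and 199 FPKM in iPSC and ESC, against 94.1 in NSC and 117 in SC. Snrpa, also of U1, had 99.5 and 129 FPKM in iPSC and ESC, against 96.0 in NSC and 71.7 in SC. Snrpa1 and Snrpb2, which encode the U2 proteins A' and B'', had the same order of libraries: 68.7 and 55.3 FPKM in iPSC, 100.5 and 84.2 in ESC, 42.4 and 32.5 in NSC, and 39.5 and 30.5 in SC.

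Levels of SR protein genes were led by Srsf2 and Srsf5, which encode classical exon-binding SR proteins. Srsf2 had 269 FPKM in iPSC, 191 in ESC, 136 in NSC and 170.0 in SC. Srsf5 had 186, 204, 123 and 225 FPKM in the same order. NSC was the lowest library for both genes. Srsf3, the smallest SR protein, had 186 FPKM in iPSC, 134 in ESC, 110.2 in NSC and 88.7 in SC, and Srsf6 had 95.8, 44.1, 59.7 and 105. The highest library of Srsf3, iPSC, was not that of Srsf6, which was SC.

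Of the hnRNP genes, Hnrnpa2b1 had the highest mean, with 345 FPKM in iPSC, 329.8 in ESC, 285 in NSC and 542 in SC. Hnrnpa1, which encodes a repressor of many exons, had 247, 345 and 488 FPKM in iPSC, ESC and NSC, against 69.6 in SC. The highest library of Hnrnpa2b1 was therefore the lowest of Hnrnpa1. Hnrnpf, whose protein binds G-rich RNA, had 334 FPKM in iPSC, 200.4 in ESC, 186 in NSC and 366 in SC. Hnrnpk, whose protein binds C-rich RNA, had 294 FPKM in iPSC, 145 in ESC, 332 in NSC and 287 in SC. Subunits of SF3A and SF3B were lower, with family medians of 56.1 FPKM in iPSC, 55.2 in ESC, 45.3 in NSC and 69.4 in SC. Sf3b5, a small SF3B subunit, was the most abundant of them, with 119 FPKM in iPSC, 300.1 in ESC, 68.9 in NSC and 115 in SC. Sf3b4 had 79.3, 102, 35.2 and 93.4 FPKM, Sf3b2 61.1, 74.3, 84.8 and 82.6, and Sf3b6, which contacts the branch point, 45.8, 55.0, 45.3 and 84.4, all in the order iPSC, ESC, NSC, SC.

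No member was 2-fold different between the pluripotent and the differentiated pair, meaning that both libraries of one pair exceeded both of the other by 2-fold or more on the log2(FPKM + 1) scale. The count was 0 higher and 0 lower of 51, where 5.01% and 12.8% of all 13642 genes compared were higher and lower. For genes near 1 FPKM this scale gives smaller differences than FPKM ratios do. The difference of pair means (iPSC and ESC minus NSC and SC) had a median of 0.18 over members and of -0.64 over all genes. The snRNP genes stood apart from the other families: the difference was positive for 7 of 7 Sm core genes (median 0.90) and 4 of 4 other snRNP genes (median 0.89), and it was also positive for all 11 after scaling. SR protein genes had 7 of 10 positive differences and 10 of 10 after scaling. The median of the SF3A and SF3B genes was -0.04 and that of the hnRNP genes -0.16, and both turned positive (0.69 and 0.58) after scaling. Scaling moved the median of all genes by over 0.5, to -0.06, and that of the members to 0.90. It brought 7 members past the rule as higher, namely Hnrnpd, Sf3a3, Sf3b5, Snrpa1, Snrpb2, Snrpc and Snrpd3, and 0 as lower. Of 13609 genes compared after scaling, 8.95% were higher and 6.03% lower. Among members, Spearman's correlation of the difference with transcript length was -0.46 (50 genes), and over 13040 genes -0.27. Genes of 1 sample share its library, so these are descriptions only, and the part of length in the differences was not tested.

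The member with the greatest positive difference was Snrpe at 1.58, followed by Snrpg at 1.28, Snrpb2 at 1.09, Sf3b5 at 1.08 and Snrpa1 at 1.01. For Snrpe and Snrpg the low library was SC, while NSC had 386 and 561 FPKM. At the other end were Hnrnpul1, Hnrnpr, Hnrnpll, Hnrnph1 and Hnrnph2. Hnrnpul1, whose protein is an hnRNP U-like factor, had 33.9 FPKM in iPSC and 16.5 in ESC, against 87.1 in NSC and 60.2 in SC, a difference of -1.57. Hnrnpr had 25.3 and 12.3 FPKM in iPSC and ESC, against 41.0 in NSC and 53.8 in SC. Both genes were lower in each pluripotent library than in each differentiated one, but by less than 2-fold between the closest libraries. Hnrnph1 and its X-linked paralogue Hnrnph2 had 122 and 26.8 FPKM in iPSC, 50.1 and 11.6 in ESC, 148 and 38.7 in NSC, and 228 and 46.5 in SC. Hnrnpll, which encodes a regulator of exon skipping in lymphocytes, had 22.9, 6.74, 30.4 and 33.3 FPKM. For all 3 of these genes ESC was the lowest library and iPSC lay nearer to NSC than to ESC.

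**Figure D2:**
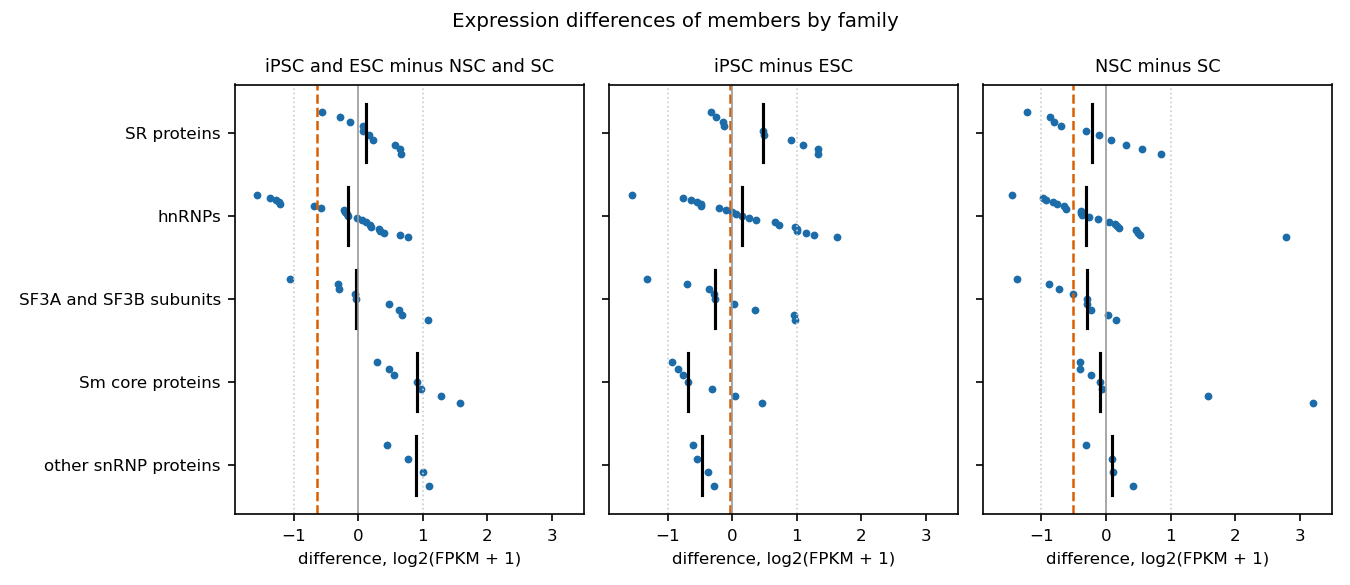
Differences on the log2(FPKM + 1) scale for each member at 1 FPKM or more in a library compared (points), with the family median (black bar), the median of all genes (dashed line) and 2-fold (dotted lines). In the left panel all 11 snRNP points lie right of 0 while the dashed line lies at -0.64, and in the right panel Snrpe and Hnrnpa1 lie at 3.20 and 2.79.

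The 2 pluripotent cell types differed in some of these genes. Of 51 members, iPSC exceeded ESC by 2-fold or more in 7 (Hnrnph1, Hnrnph2, Hnrnpk, Hnrnpll, Srsf1, Srsf6 and Srsf10), and 2 were lower (Hnrnpa3 and Sf3b5). After scaling 6 were higher, without Hnrnpk (0.96), and the same 2 were lower, beside 12.7% and 14.2% of 12081 genes. With a pseudocount of 5 in place of 1, Hnrnpk (0.99) and Hnrnph2 (0.94) fell short of 2-fold. As deposited, the shares over all 11598 genes compared were 12.9% and 12.4%, so the members' counts were near the background for genes higher and below it for genes lower. The median difference was -0.10 for members and -0.03 for all genes. Hnrnpll had 3.39 times and Srsf10, whose protein regulates exon inclusion, 2.58 times the FPKM of ESC in iPSC (59.2 FPKM against 22.99). Srsf1, the founding SR protein gene, had 95.6 FPKM in iPSC and 37.5 in ESC, beside 71.9 in NSC and 39.4 in SC. Hnrnpa3 had 77.8 FPKM in iPSC and 229 in ESC, beside 92.3 in NSC and 164 in SC. For Sm core and other snRNP genes 9 of 11 differences were negative, among them Snrpd1 at -0.93, Snrpd2 at -0.84 and Snrpf at -0.76, all short of 2-fold. Spearman's correlation of iPSC minus ESC with transcript length was 0.35 over 50 members and 0.46 over 11209 genes, and with GC content -0.26 and -0.50; the part of length and GC content in the differences was not tested.

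Between NSC and SC the balance of directions depended on scaling: 19 of 50 members had a positive difference as deposited and 36 after scaling. Over all genes 4427 of 12514 were positive as deposited and 6031 of 12163 after scaling. As deposited, 3 of 50 members were at least 2-fold higher in NSC (Snrpe, Hnrnpa1 and Snrpg) and 3 were lower (Hnrnpab, Sf3b4 and Srsf9), where 14.9% and 35.2% of 12514 genes were higher and lower. Both counts were below these shares. After scaling 7 were higher and 0 lower, again below the shares over 12163 genes, at 21.4% and 23.3%. The 3 genes higher as deposited were also higher after scaling, and Hnrnpa0, Hnrnpul1, Srsf1 and Srsf10 were added by scaling. The median over members was -0.25 as deposited and 0.26 scaled, beside -0.51 and -0.01 over all genes. Snrpe had 9.41 times, Hnrnpa1 7.01 times and Snrpg 3.005 times the FPKM of SC in NSC. Hnrnpab, whose protein binds single-stranded nucleic acids, had 156 FPKM in NSC and 428 in SC, beside 261 in iPSC and 202 in ESC. Srsf9 had 54.2 FPKM in NSC and 129 in SC, beside 53.2 in iPSC and 59.1 in ESC, so that SC alone was high. The next genes on either side fell short of 2-fold as deposited, with differences of 0.85 for Srsf1, 0.56 for Srsf10, -0.98 for Hnrnpf and -0.93 for Hnrnpa2b1. Multi-copy sequence can blur such values: the table holds a pseudogene of the Hnrnpa1 family, and whether reads of the short genes Snrpe and Snrpg were shared with copies elsewhere was not tested.

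How even the members were also depended on scaling. As deposited, 20 of the 50 members expressed everywhere stayed within 2-fold across the 4 libraries, or 40%, against 17.3% of 8561 genes. After scaling 7 of the 50 did, or 14%, against 22.2% of the genes. The evenest gene as deposited, named after its values were seen, was Srsf4, with 32.9, 39.2, 32.8 and 35.5 FPKM in iPSC, ESC, NSC and SC. By family 5 of 9 SF3A and SF3B genes, 9 of 20 hnRNP genes, 4 of 10 SR protein genes, 1 of 7 Sm core genes and 1 of 4 other snRNP genes were within 2-fold as deposited. After scaling the counts were 3, 3, 1, 0 and 0 in the same order.

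In 17 members several transcripts divided the gene's level, and in 3 SR protein genes a stop-containing transcript took its highest share in NSC. The transcripts concerned carry a segment that the leading coding transcript lacks, and the reading frame of the leading transcript meets a stop codon inside that segment. The stop and 12 bases on each side are shown here because the leading transcripts lack them at this place. They come from the GENCODE M21 transcripts paired with the RefSeq accessions, with GRCm38 coordinates, and the stop codon is in capitals.
Srsf1 NM_001078167: atacagttttctTAAcagtggaatttg
Srsf3 NR_036613: ctcaccaccctcTGAatctgcattagc
Srsf7 NR_036615: agtcagtcgcctTGAttcagaatgtca
The Srsf1 bases lie on the plus strand at chr11:88049255-88049281, in exon 3 of 3, in a segment of 196 nt whose stop codon begins at base 54. Those of Srsf3 lie on the plus strand at chr17:29039473-29039499, in exon 4 of 7, in a segment of 456 nt with the stop at base 32. Those of Srsf7 lie on the minus strand at chr17:80205042-80205068, in exon 4 of 9, in a segment of 460 nt with the stop at base 28. GENCODE classes the Srsf3 and Srsf7 transcripts as nonsense-mediated decay, the pathway that degrades mRNAs with a premature stop, and the Srsf1 transcript as protein-coding.

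The Srsf1 transcript made up 15.9% of the gene's FPKM in iPSC, 9.83% in ESC, 54.4% in NSC and 6.84% in SC. In FPKM it had 15.3, 3.69, 39.1 and 2.69 in that order, while the leading transcript (NM_173374) had 80.4, 33.8, 32.8 and 36.7. NSC was thus the library where the segment-bearing transcript outweighed the leading one, and the leading transcript by itself was no higher there than in ESC. For Srsf3 the share was 13.2% in iPSC, 10.5% in ESC, 42.8% in NSC and 20.4% in SC, and its coding transcript (NM_013663) had 162, 119.5, 63.0 and 70.6 FPKM. For Srsf7 it was 26.1%, 10.96%, 36.1% and 15.7%. The non-coding transcript of Srsf9 (NR_036616), for which GENCODE gives no structure of its own, stayed at 0.675% in iPSC, 0.154% in ESC, 2.79% in NSC and 0.882% in SC. All 4 genes had their highest share in NSC. Of 161 genes with both coding and non-coding transcripts, Srsf3, Srsf7 and Srsf9 among them, 37.3% had their highest non-coding share in NSC. The medians over the 161 were 14.1% in iPSC, 12.95% in ESC, 16.96% in NSC and 16.3% in SC. Srsf1 is not among them, as its transcripts are all listed as coding. A segment with a stop was also found in Hnrnpa3 (NM_146130, exon 1 of 11). Its share was 4.57% in iPSC, 16.3% in NSC and 0 in ESC and SC. Shares rest on the authors' assignment of reads to transcripts, whose error is unknown.

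**Figure D3:**
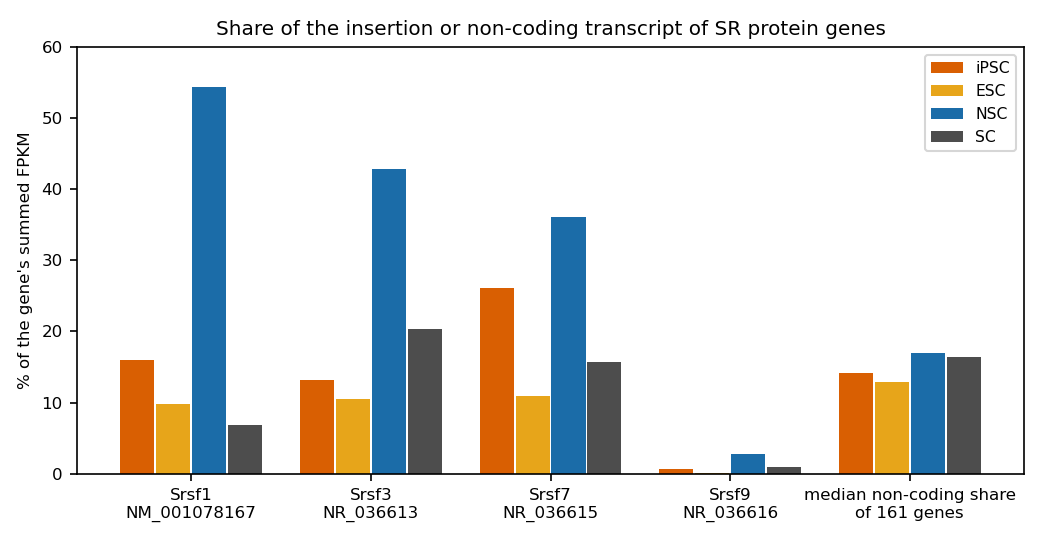
Share of a gene's summed FPKM (in percent) on the stop-containing or non-coding transcript of 4 SR protein genes in each RNA library, beside the median non-coding share of 161 genes. The NSC bars of Srsf1, Srsf3 and Srsf7 reach 54.4%, 42.8% and 36.1% and are the tallest of each gene, while the bars of the median stay between 12.95% and 16.96%.

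The leading transcript differed between libraries in 9 members, counting Srsf1 and Srsf7. No share over all genes with several transcripts is set beside this count, so it describes the members only. Hnrnpa1 has a long transcript (NM_001039129) with 159 nt more of coding sequence, or 53 codons, which took 26.5% of its FPKM in iPSC, 50.3% in ESC and 25.8% in NSC. In SC the shorter transcript (NM_010447) is listed at 0, against 182 FPKM in iPSC, 171 in ESC and 363 in NSC. The long transcript had 65.5 FPKM in iPSC, 173 in ESC, 126 in NSC and 69.6 in SC, so its SC level was close to that of iPSC. Whether the listed 0 is a failed estimate, or reads given to the long transcript, was not tested. The transcript of Hnrnpa2b1 without a coding segment of 120 nt, or 40 codons (NM_182650), took 61.5% in iPSC, 44.4% in ESC, 55.8% in NSC and 67.8% in SC. For Hnrnpab the transcript with 47 codons more (NM_001048061, 141 nt) led in NSC with 52.3% and not in iPSC, ESC or SC, with 45.5%, 45.1% and 39.7%. For Srsf11 the transcript NM_001093752 had 64.0% in iPSC, 35.04% in ESC, 74.4% in NSC and 77.7% in SC. In Hnrnpa3 the transcript NM_198090 was lowest in NSC (35.6%) and highest in ESC (83.8%), and in Srsf5 NM_001079694 was lowest in NSC (41.99%) and highest in iPSC (67.4%). In Hnrnpc the transcript NM_001170982 led in iPSC (38.9%), NSC (36.9%) and SC (39.1%), and NM_001170983 led in ESC (37.2%). In the other 8 of the 17 genes, 1 transcript led in all 4 libraries. Members with transcripts listed at 0 in some library were Hnrnpa1, Hnrnpa3 and Hnrnpf.

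The table gives m6A as a yes or no for 5 regions of a transcript, in the order TcSS, 5' UTR, coding sequence (CDS), TsTS and 3' UTR. The abbreviations TcSS and TsTS are kept as deposited, without a meaning given to them. A gene counted as called where any region of any of its transcripts was called, among genes at 1 FPKM or more in the RNA library of that cell type. Called members numbered 35 of 50 in iPSC (70%, exact 95% binomial interval 55.4% to 82.1%), 37 of 51 in ESC (72.5%, 58.3% to 84.1%), 30 of 50 in NSC (60%, 45.2% to 73.6%) and 36 of 50 in SC (72%, 57.5% to 83.8%). Over all genes the shares were 69.4% in iPSC, 69.0% in ESC, 58.1% in NSC and 66.6% in SC, each somewhat below the members' share. Among genes at 50 FPKM or more, nearer to the members in level, they were 52.5%, 70.3%, 38.9% and 66.9% in the same order. These were also below the members' share, by more in iPSC and NSC than in ESC and SC. The intervals cover counting error over genes only. They treat all members as alike, though the families differed, so they are no test of members against other genes.

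The families differed widely behind this average. The hnRNP genes were called nearly throughout, with 19 of 20 in iPSC, 20 of 21 in ESC, 20 of 20 in NSC and 20 of 20 in SC. Of the SF3A and SF3B genes 7 of 9 were called in iPSC, 7 in ESC, 5 in NSC and 7 in SC, and of the SR protein genes 7, 5, 4 and 5 of 10. Sm core genes were called rarely, with 1 of 7 in iPSC, 3 in ESC, 1 in NSC and 1 in SC, and of the other snRNP genes 1, 2, 0 and 3 of 4 were called. Of the 50 members expressed everywhere, 27 were called in all 4 cell types (54%, against 45.9% of 8561 genes), 19 of them hnRNPs. The 8 called in none (16%, near the 14.3% of all genes) were Srsf3, Srsf7, Srsf9, Sf3b6, Snrpb2, Snrpe, Snrpf and Snrpg. The uncalled Srsf3 and Srsf7 are 2 of the 3 genes with the stop-containing transcripts shown above, and non-coding transcripts carry 0 calls in the whole table.

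Level did not order these calls in one way. The median FPKM of called and uncalled members was 79.3 and 125 in iPSC, 102 and 74.1 in ESC, 89.4 and 68.4 in NSC, and 86.0 and 86.5 in SC. The length of the whole transcript gave no single order of the families either. The median length of the leading coding transcript was 2494 nt for hnRNP genes (20 with a match), 2618 nt for SR protein genes and 3222 nt for SF3A and SF3B genes, beside 1055 nt for Sm core genes, 1307 nt for other snRNP genes and 2788 nt over 8379 genes. The short Sm core and other snRNP genes had few calls. Over the whole transcript, SR protein genes were no shorter than hnRNP genes, and they were called less often. Their median CDS was shorter, at 789 nt beside 1306.5 nt for hnRNP genes. It was 1506 nt for SF3A and SF3B genes, 723 nt for other snRNP genes and 357 nt for Sm core genes. The 27 members called in 4 cell types had a median length of 2370 nt, the 15 called in 1 to 3 cell types 2752 nt, and the 9 called in none, Srsf12 included, 1162 nt. The part of length in the calls was not tested.

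**Figure D4:**
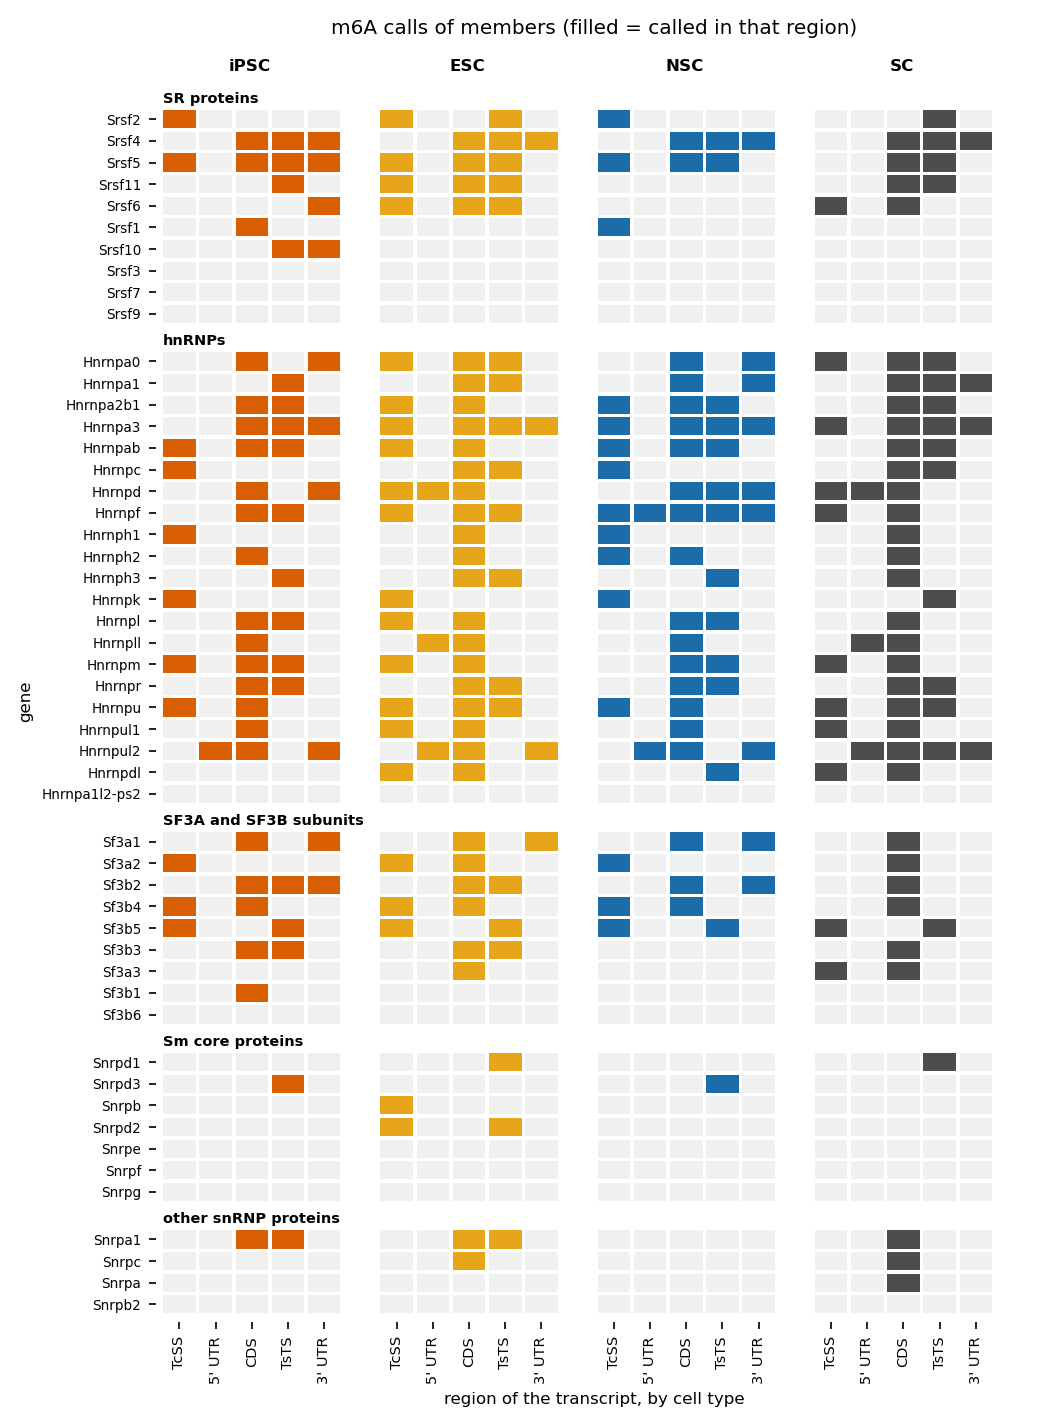
Calls of each member in 5 regions (columns) of 4 cell types (blocks), with a coloured cell where the region was called and a grey one where it was not. Rows run by family and then by the number of cell types called, and the hnRNP block has a filled cell for nearly every gene and cell type while the Sm core block holds 7 filled cells in all.

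By region, the members had lower shares at TsTS and in the 3' UTR, and higher ones at TcSS, than genes in general. TsTS was called in 18 of 50 members in iPSC (36%), 19 of 51 in ESC (37.3%), 14 of 50 in NSC (28%) and 16 of 50 in SC (32%), against 47.8%, 48.6%, 37.2% and 43.4% of all genes. The 3' UTR was called in 10, 4, 9 and 4 members (20%, 7.84%, 18% and 8%), against 32.8%, 26.4%, 27.4% and 22.4%. The CDS was called in 23 members in iPSC (46%), 31 in ESC (60.8%), 20 in NSC (40%) and 32 in SC (64%), against 45.6%, 41.0%, 43.7% and 46.2%. In ESC and SC the members' CDS share was thus above that of all genes, and in iPSC and NSC it was close to it. TcSS was called in 11, 21, 15 and 11 members (22%, 41.2%, 30% and 22%), against 12.4%, 16.6%, 13.1% and 12.6%. The 5' UTR was called in 1, 3, 2 and 3 members, against 5.16%, 3.48%, 5.73% and 5.22%. Genes at 50 FPKM or more, which are nearer to the members in level, had other shares: TsTS was called in 31.9% of them in iPSC, 43.6% in ESC, 20.6% in NSC and 45.4% in SC. Against these, the members' TsTS share was above in iPSC and NSC and below in ESC and SC. The CDS was called in 26.3%, 39.1%, 25.1% and 42.7% of genes at that level, below the members in all 4 cell types. TcSS was called in 12.8%, 41.2%, 10.6% and 20.8% of them, so that the ESC share of members was the same as theirs. The 3' UTR was called in 18.1%, 14.7%, 15.5% and 22.8% of them, below the members in iPSC and NSC and above them in ESC and SC. The CDS calls were mostly those of hnRNP genes: 14 of 20 in iPSC, 19 of 21 in ESC, 15 of 20 in NSC and 19 of 20 in SC.

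No member was called in both pluripotent cell types and neither differentiated one, or the reverse, where 2.56% and 0.771% of 8561 genes were. Between the cell types of a pair, 4 of 50 members were called in iPSC and not in ESC (Snrpd3, Srsf1, Sf3b1 and Srsf10; 9.34% of all genes) and 6 in ESC and not in iPSC (Snrpd2, Snrpb, Snrpd1, Snrpc, Hnrnpdl and Sf3a3; 9.53%). In NSC and not in SC 2 members were called (Snrpd3 and Srsf1; 10.0%), and in SC and not in NSC 8 (Snrpd1, Snrpc, Snrpa, Srsf6, Snrpa1, Srsf11, Sf3b3 and Sf3a3; 16.7%). Of these counts, that for ESC and not iPSC (6 of 50) was above the share over all genes and the others were below it. Srsf1, whose protein also acts in mRNA export and translation, was called in the CDS in iPSC and at TcSS in NSC, the 2 libraries where its RNA was highest. Snrpd3 was called at TsTS in iPSC and NSC, with 204 and 114 FPKM, and not in ESC or SC, with 329.8 and 151. Sf3b1, the SF3B scaffold that holds the branch point, was called in the CDS in iPSC alone, at 48.7 FPKM, beside 24.5 in ESC, 77.2 in NSC and 69.4 in SC. Srsf10 was called at TsTS and in the 3' UTR in iPSC alone, and on its minor transcript (NM_010178) only.

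The regions called were the same more often between iPSC and NSC, and between ESC and SC, than between the other pairs of cell types. Of the members called in either cell type, 19 of 36 had exactly the same regions in iPSC and NSC (52.8%, against 34.5% of all genes) and 16 of 38 in ESC and SC (42.1%, against 34.2%). The same held for 10 of 41 in iPSC and ESC (24.4%, against 25.1%), 9 of 39 in ESC and NSC (23.1%, against 16.8%), 5 of 40 in iPSC and SC (against 22.7%) and 4 of 38 in NSC and SC (10.5%, against 16.9%). These 6 comparisons share their libraries, and the 2 pairs with the highest shares were the same over members and over all genes. One pattern in iPSC and NSC and another in ESC and SC was seen in 9 of 50 members (18%, against 8.31% of all genes): Hnrnpa0, Hnrnpc, Hnrnph1, Hnrnpll, Hnrnpu, Hnrnpul1, Snrpc, Snrpd1 and Snrpd3. The pairing of iPSC with ESC and NSC with SC, and that of iPSC with SC and ESC with NSC, each had 0 members, against 2.10% and 1.13%. Hnrnpc was called at TcSS in iPSC and NSC and in the CDS and at TsTS in ESC and SC, at 179, 206, 162 and 211 FPKM in iPSC, ESC, NSC and SC. Hnrnph1 was called at TcSS in iPSC and NSC and in the CDS in ESC and SC. Hnrnpa0 was called in the CDS and 3' UTR in iPSC and NSC, and at TcSS, in the CDS and at TsTS in ESC and SC. The labels name no batch that joins these libraries, and whether the m6A libraries were made or called together in such pairs was not tested. Members with the same called regions in all 4 cell types were Hnrnpr (CDS and TsTS), Srsf4 (CDS, TsTS and 3' UTR) and Sf3b5 (TcSS and TsTS). No share over all genes is set beside these, so they describe the members only.

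**Figure D5:**
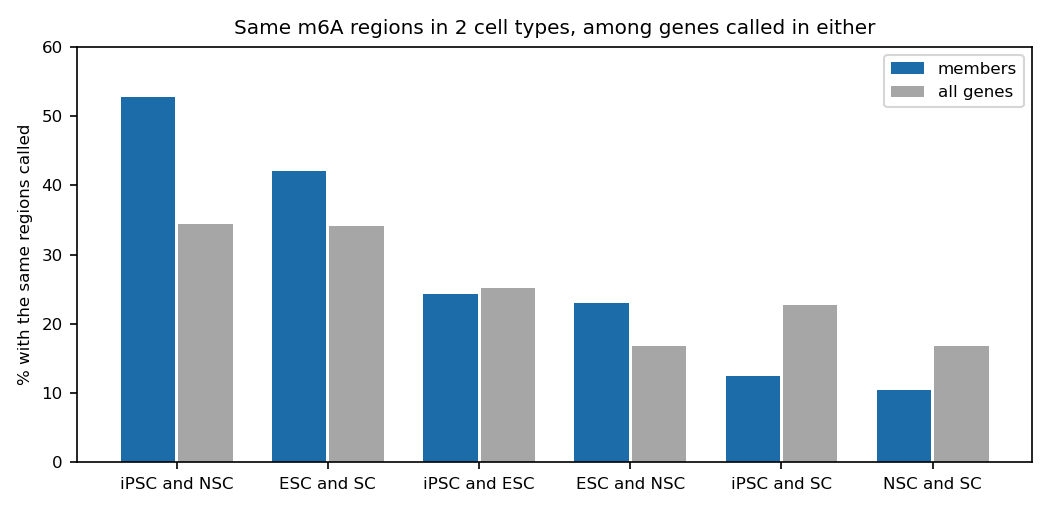
Share (in percent) of genes with exactly the same m6A regions in 2 cell types, among genes called in either, for members and for all genes. The members' bars are highest for iPSC with NSC (52.8%) and ESC with SC (42.1%) and lowest for NSC with SC (10.5%).

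The m6A enzyme complex prefers a short sequence around the adenosine, of which GGACT is a common form. GGACT was searched on the transcript strand of each gene's leading coding transcript, as the single motif, and 41 of 51 members with a match in GENCODE held it at least once. Within 100 bases of the end of the stop codon it lay in 7 of 51 members (13.7%), against 24.2% of 14486 genes. The headers do not say which bases TsTS covers, so this window may differ from that of the TsTS calls. Of 29 members with a TsTS call in some cell type, on any of their transcripts, 4 held the motif in this window (13.8%). Of 22 without such a call 3 did (13.6%). Over all genes at 1 FPKM or more in all 4 libraries the shares were 29.6% of 5800 and 15.04% of 2579. A match is a description of these letters, not a methylated site. The 7 windows are shown because they hold every member with the motif this close to its stop codon, with 10 bases on each side and the motif in capitals.
Sf3b2: agctagatctGGACTccctaggctc
Snrpa1: tcagcaacgtGGACTctcagctttg
Srsf10: tcaaggtcttGGACTagtcccaagt
Snrpd2: tcctgcgcggGGACTcggtcatcgt
Srsf7: cagaaagaatGGACTgaagttctca
Snrpf: cttgacttgtGGACTatttaatgca
Snrpb2: caatgtggaaGGACTtggttattta
In GRCm38 they lie at chr19:5274363-5274387 (minus strand, Sf3b2), chr7:66074457-66074481 (plus, Snrpa1), chr4:135863988-135864012 (plus, Srsf10), chr7:19152592-19152616 (plus, Snrpd2), chr17:80201540-80201564 (minus, Srsf7), chr10:93583368-93583392 (minus, Snrpf) and chr2:143071566-143071590 (plus, Snrpb2), each in the last exon. The motif is in the 3' UTR of Sf3b2, Snrpa1, Snrpf and Snrpb2 and in the coding sequence of Srsf10 and Snrpd2, and in Srsf7 its last base is the first of the stop codon. Sf3b2 and Snrpa1 had a TsTS call in iPSC and ESC, Srsf10 in iPSC and Snrpd2 in ESC. The Srsf10 call lay on its minor transcript only, whereas the window shown is from the leading transcript, which had no call. Srsf7, Snrpf and Snrpb2 had no call in any region or cell type. In NSC and SC, 0 of 14 and 0 of 16 TsTS-called members held the motif within 100 bases of the end of the stop codon.

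The same motif falls at related places in the CDS of the 3 Hnrnph paralogues, which are shown to compare their sequences; counted from the last base of the stop codon, it begins at -915 in Hnrnph1 and Hnrnph2 and at -891 in Hnrnph3.
Hnrnph1: cattgccggtGGACTtccaggggag
Hnrnph2: cactgccagtGGACTttcaggggcg
Hnrnph3: cattgacgatGGACTaccaggggag
These lie at chr11:50381486-50381510 (plus strand, Hnrnph1), chrX:134605332-134605356 (plus, Hnrnph2) and chr10:63018847-63018871 (minus, Hnrnph3). The CDS of Hnrnph1 was called in ESC and SC, that of Hnrnph2 in all 4 cell types and that of Hnrnph3 in ESC and SC.

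Other genes of the splicing pathway, 104 in the table of a list of 107, had their lowest median difference between the pluripotent and the differentiated pair in the tissue-regulated factors (-0.99, and -0.60 after scaling). Of 101 compared, 1 was 2-fold higher in the pluripotent pair (Dhx16, a helicase of the active spliceosome, with 48.6 and 75.4 FPKM in iPSC and ESC against 12.1 in NSC and 18.9 in SC) and 6 were lower (Celf2, Mbnl1, Mbnl2, Rbfox2, Rbmx and Srpk2), beside 5.01% and 12.8% of all genes. Mbnl2, whose protein promotes adult splicing patterns, had 5.69 and 1.46 FPKM in iPSC and ESC, against 41.5 in NSC and 31.6 in SC. Rbmx, the X-linked hnRNP G gene, had 5.25 and 1.79 FPKM in iPSC and ESC, against 45.9 in NSC and 17.6 in SC. Mbnl1 had 2.37 and 0.997 FPKM in iPSC and ESC, against 21.3 in NSC and 14.6 in SC. After scaling 15 of 100 were higher, Dhx16 among them, and 4 lower (Celf2, Mbnl1, Mbnl2 and Rbfox2), beside 8.95% and 6.03% of all genes. The proteins that load the Sm ring and their methylation partners, 11 in number, had a median difference of 0.53, with Smn1 at 59.3 and 50.4 FPKM in iPSC and ESC, against 18.2 in NSC and 29.0 in SC, and the 8 LSM ring genes also had a median of 0.53. Both medians were also positive after scaling, at 1.24 and 1.27, and 0 genes of either list passed the rule as deposited, against 5 and 2 after scaling. Between iPSC and ESC 15 of 96 were higher and 7 lower, beside 12.9% and 12.4% of all genes; Qk, a regulator of splicing in glia, had 24.04 FPKM in iPSC and 5.82 in ESC, and Esrp1, an epithelial splicing factor, 7.44 and 0.665. Between NSC and SC 10 of 100 were higher and 18 lower, beside 14.9% and 35.2% of all genes. After scaling 16 and 8 of 99 were, beside 21.4% and 23.3% of all genes. The neuronal RNA-binding protein gene Elavl3 had 21.1 FPKM in NSC and 0.0229 in SC, and Celf2 had 2.29 and 27.9. The 11 genes of the U5 particle and tri-snRNP were called for m6A in 11, 10, 11 and 10 cases in iPSC, ESC, NSC and SC, and the 8 LSM ring genes in 2, 5, 1 and 3. Over all genes 69.4%, 69.0%, 58.1% and 66.6% were called in that order, so the U5 list was above this share in each cell type and the LSM ring list below it, by the least in ESC.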

How the data were processed

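The 8 libraries (4 RNA-seq, 4 m6A-seq) entered as 1 deposited table. Its expression values are FPKM per transcript, made by the authors and named so per the file headers. Its m6A values are the authors' calls of 1 or 0 in 5 regions. Without giving roles, the submitters' processing notes list mm9, Cufflinks 2.0.2, TopHat2 2.0.4 and CASAVA. The peak caller, its threshold and its control are not stated in the labels or headers. Read depth is unknown, and whole reads could not be recovered from FPKM split over transcripts.

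All 83 member transcripts took their symbols from a RefSeq gene table of GRCm38.p6. Sequences, transcript lengths and coordinates came from GENCODE M21 (GRCm38), another build than mm9, through its RefSeq pairing. Expression was compared as log2(FPKM + 1), for genes that reached 1 FPKM in a library compared, with a 2-fold rule over the whole table. There is 1 library a group, so no test was run. Exact (Clopper-Pearson) intervals are 95%. Named members were the 4 highest of each family, the 5 highest and lowest of each comparison, those with differing m6A calls, and those whose leading transcript changed or was listed at 0; the Hnrnph windows and Srsf4 were added after their values were seen. Other pathway genes were named by their differences. Members and lists were chosen with earlier results of these data known. Alternatives covered the pseudocount, filters, scaling, transcript choice, fold, left-out libraries and number of regions. Work was done in Python 3.11.15 with pandas 2.3.3, numpy 2.4.6, scipy 1.17.1 and matplotlib 3.10.9.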

Additional observations from a re-analysis of the deposited data

How the results depend on the processing

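No paired analysis was possible because each cell type has 1 library per assay and the labels give no replicate that is shared between cell types. Counts of members past the rule moved with scaling and with the fold. Between the pluripotent and the differentiated pair, 0 were higher and 0 lower as deposited, 7 higher after scaling by the median ratio, and 2 higher and 2 lower at 1.5-fold. The shares of all genes higher and lower were 8.95% and 6.03% after scaling, and 7.93% and 21.9% at 1.5-fold. Leaving out 1 library gave between 1 and 5 higher and between 0 and 6 lower: 5 and 6 without iPSC, 1 and 0 without ESC, 3 and 2 without NSC, and 1 and 1 without SC, where fewer libraries have to meet the rule. The shares over all genes, in that order, were 9.10% and 22.5%, 7.30% and 18.2%, 8.83% and 38.2%, and 9.77% and 23.2%. Between iPSC and ESC, 1.5-fold gave 14 higher and 10 lower, beside 25.2% and 25.8% of all genes. Between NSC and SC, scaling gave 7 higher and 0 lower, the leading transcript 8 lower and 1.5-fold 14 lower. Of all genes 21.4% were higher and 23.3% lower after scaling, 35.6% lower with the leading transcript and 47.7% lower at 1.5-fold. Srsf7 turned from 0.08 (summed) to -1.26 with its leading transcript, which then passed the rule as lower. The count of members within 2-fold over the 4 libraries went to 7 after scaling, an alternative added after seeing the data. With 2 or more regions required, the share of m6A-called members was 40% in iPSC, 38% in NSC and 42% in SC. In ESC the share stayed within 1.5 times of its 72.5%. No share over all genes is set beside these, so they describe the members only. The cause of these moves was not tested beyond what each alternative changes by construction. Apart from the values above, the pseudocounts, filters and transcript choices tried kept these counts within 1.5 times, and the shares with the same regions in 2 cell types moved little when the leading transcript alone was used, also added after seeing the data. FPKM without depth allows no detection limit, and calls without height allow no comparison of methylation levels.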
